A study of Mus musculus with 18 samples.

Results

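The immediate early genes followed here, in embryonic mouse cortex of a BAF155 knockout, were Fos, Fosb, Jun, Junb, Egr1, Nr4a1, Nr4a3, Npas4, Ier2 and Arc. They were taken as a list of names, matched by symbol, and are 10 of the 47729 genes in the RNA count data. The 8 RNA libraries were made from whole cortex at embryonic day E15.5, 4 of the Vehicle group and 4 of the TSA group. Another 4 Vehicle and 4 TSA libraries gave lists of peaks of H3K9ac, the acetylation of lysine 9 of histone H3, and 2 input samples were not analysed here. Every sample carried the BAF155 conditional knockout (cKO), so the only contrast is TSA against Vehicle within that genotype, and no sample with intact BAF155 was analysed here. Smarcc1 encodes BAF155, part of the core of the BAF (SWI/SNF) complex that remodels chromatin, and TSA (trichostatin A) is an inhibitor of histone deacetylases. Not given in the sources used here were the Cre driver, the dose and the time from treatment to collection. Nothing in the labels says that the replicates were separate embryos or litters, so p-values measure the spread between these libraries, which may be technical.

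Immediate early genes are transcribed within minutes of a stimulus without new protein synthesis, when calcium or growth factor signals reach factors such as SRF and CREB that already sit at their promoters. Most encode transcription factors that pass the signal to later genes, and in neurons they are widely used as markers of recent activity. Feedback phosphatases and RNA-decay factors then shut the response down, so that in unstimulated tissue most of these genes are held at a low level.

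RefSeq promoter sequences were at hand for 7 of the 10 genes (build GRCm38.p6, the same assembly as mm10). Egr1, Arc and Ier2 were not matched. The 250 bases before the start are shown for the 3 genes whose RNA rose in TSA (Nr4a3, Nr4a1 and Jun), and for Fos and Npas4, the classical stimulus-driven genes, whose RNA did not pass the test. Capitals mark TGACG on either strand (CGTCA when read on the printed strand), the core of the cAMP response element bound by CREB-family factors, and also TATAAA and GCGNGGGCG, the latter bound by EGR proteins. The sequences run 5′ to 3′ on the strand of the gene.
Nr4a3 (chr4:48045055-48045304, plus strand): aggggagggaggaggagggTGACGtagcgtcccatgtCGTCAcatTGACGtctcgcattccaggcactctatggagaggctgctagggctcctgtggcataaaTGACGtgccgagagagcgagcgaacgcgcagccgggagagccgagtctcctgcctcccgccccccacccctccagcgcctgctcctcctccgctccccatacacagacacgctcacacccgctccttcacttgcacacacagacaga
Nr4a1 (chr15:101266596-101266845, plus strand): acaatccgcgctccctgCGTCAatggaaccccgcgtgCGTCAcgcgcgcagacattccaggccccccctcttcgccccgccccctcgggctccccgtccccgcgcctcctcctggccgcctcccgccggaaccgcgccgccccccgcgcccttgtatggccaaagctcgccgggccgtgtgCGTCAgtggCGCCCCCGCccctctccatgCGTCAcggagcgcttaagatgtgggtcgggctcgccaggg
Jun (chr4:95052223-95052472, minus strand): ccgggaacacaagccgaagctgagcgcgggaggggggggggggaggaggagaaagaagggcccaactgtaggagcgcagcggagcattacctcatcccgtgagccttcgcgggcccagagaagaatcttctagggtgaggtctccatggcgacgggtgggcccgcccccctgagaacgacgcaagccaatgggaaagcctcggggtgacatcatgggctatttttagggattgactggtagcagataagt
Fos (chr12:85473640-85473889, plus strand): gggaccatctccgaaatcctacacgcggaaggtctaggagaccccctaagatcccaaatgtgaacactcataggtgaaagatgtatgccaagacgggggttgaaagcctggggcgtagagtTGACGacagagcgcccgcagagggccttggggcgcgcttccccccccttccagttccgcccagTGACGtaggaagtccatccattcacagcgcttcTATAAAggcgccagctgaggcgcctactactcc
Npas4 (chr19:4989972-4990221, minus strand): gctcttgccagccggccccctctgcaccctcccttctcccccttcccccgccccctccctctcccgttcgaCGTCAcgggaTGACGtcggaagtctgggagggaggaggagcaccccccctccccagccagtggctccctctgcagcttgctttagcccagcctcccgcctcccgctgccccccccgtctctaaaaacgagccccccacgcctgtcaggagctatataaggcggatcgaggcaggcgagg

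The element TGACG occurred 4 times in the Nr4a3 window and 4 times in the Nr4a1 window, counted on both strands over 300 bases (250 before to 50 after the start). Of all 27025 RefSeq promoters of this length, 21.0% held at least 1 match and 1.07% held 3 or more. Fos and Npas4 each had 2 matches, Fosb and Junb 1 each, and Jun none, so that 6 of the 7 genes had at least 1. The longer palindrome TGACGTCA was in 0 of 7 (1.88% of all promoters), TGANTCA, the AP-1 site, in 0 of 7 (7.93%), and the serum response element core (CArG box) in 0 of 7 (1.57%). GCGNGGGCG was found once in Nr4a1 and once in Fosb (5.55% of all promoters). TATAAA lay 33 to 28 bases before the Fos start and at the annotated start itself in Junb (14.2% of all promoters). The 7 windows had a GC content of 58.7% in Fos to 72.3% in Nr4a1, against a median of 52.7% over all promoters. The shares over all promoters given above are thus not matched to these windows for GC content. These matches are a description of letters in a short window. Only exact matches were counted, so variant sites and sites further upstream were not searched. The starts of Fosb, Nr4a1, Nr4a3 and Npas4 in the RefSeq table lie inside the annotated spans of those genes, so other starts were not searched either.

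Several features of the RNA libraries differed between the groups and precede any result. Total counts were 12200426 to 15600340 in Vehicle and 6733415 to 20400727 in TSA, TSA 1 being the shallowest. Xist RNA, made from the inactive X chromosome of female cells, was at 1770 to 3120 CPM (counts scaled to a common library size, with TMM factors) in Vehicle 1 to 4 and at 2330 CPM in TSA 4, but at 0.305 to 1.47 CPM in TSA 1 to 3. The sum of 4 Y-linked genes was 237 to 267 CPM in TSA 1 to 3 and 0.0689 to 5.22 CPM in the other 5 libraries. Embryo sex and treatment therefore cannot be told apart for most of the TSA group. The calls below are also given, for each gene or as a count for its list, for the 5 libraries with Xist RNA. There TSA 4 stands alone and is assumed to vary like the Vehicle libraries. With Xist as a covariate in all 8 libraries, the TSA effect likewise rests mainly on TSA 4, so those fits are not independent of each other. Smarcc1 itself averaged 136 ± 10.7 CPM under Vehicle and 132 ± 10.6 CPM under TSA (SD, n = 4 each), which does not check the deletion, since counts of the whole gene in bulk tissue include undeleted exons and undeleted cells.

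In TSA, 3 of the 9 genes that could be tested rose, namely Nr4a3, Nr4a1 and Jun, and 0 fell. The edgeR quasi-likelihood test with Benjamini-Hochberg adjustment was run over all 15000 genes that passed the filter on low counts, and 33.0% of these were called at an adjusted p under 0.05, 15.4% as higher and 17.6% as lower in TSA. Groups did not overlap in 2 of the 9, with TSA above Vehicle in both, against 32.3% of all tested genes in either direction and 14.9% with TSA above. The median log2 fold change was 0.27 over the 9 genes and −0.01 over all tested genes. Fosb did not pass the filter. The 3 called genes among 9 thus stand close to the share of all genes called in either direction.

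**Figure D1:**
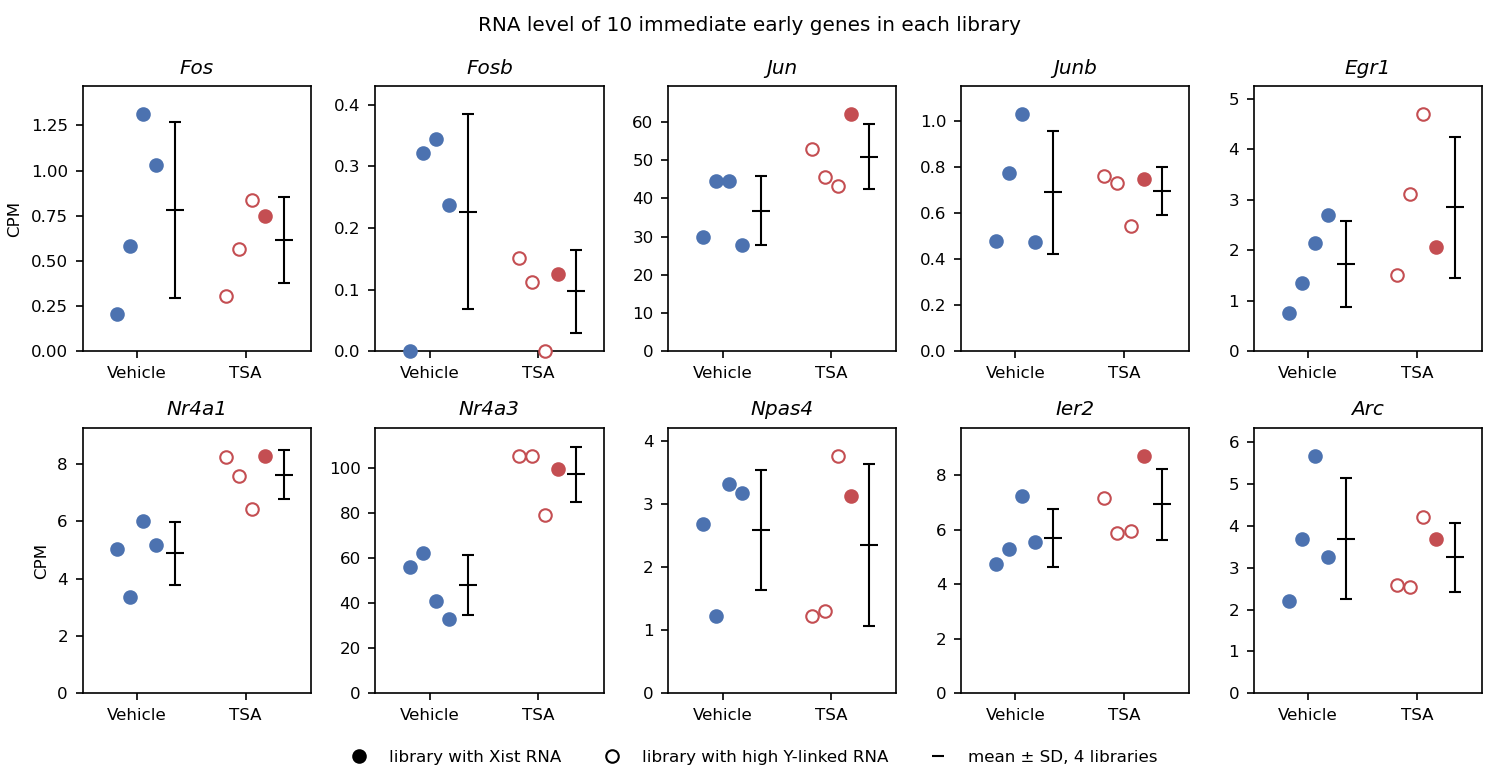
RNA level (CPM, y axis from 0, scaled separately for each gene) of the 10 genes in 4 Vehicle and 4 TSA libraries; filled points are libraries with Xist RNA, open points those with high Y-linked RNA, and bars show the mean ± SD. All 4 TSA libraries lie above all 4 Vehicle libraries in Nr4a1 and Nr4a3 and overlap them in the other 8 genes.

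The NR4A genes encode orphan nuclear receptors that bind DNA without a known hormone and are induced by cAMP and calcium signals. Nr4a3 (NOR-1; ENSMUSG00000028341, chromosome 4, 48045078 to 48086447) was measured at 56.2, 62, 40.9 and 32.9 CPM in the Vehicle libraries, in the order 1 to 4. In the TSA libraries, in the same order, it stood at 105, 105, 79.2 and 99.6 CPM. The lowest TSA library thus stood above the highest Vehicle library. This was a 2.02-fold rise, or 1.01 ± 0.17 in log2 (± SE; 95% interval 0.64 to 1.38; n = 4 in each group), with an edgeR adjusted p of 0.000671. In the 5 libraries with Xist RNA the log2 fold change was 1.05 but the call ended. With Xist as a covariate in all 8 it was 1.05 (edgeR adjusted p = 0.026), a fit that also rests mainly on TSA 4.

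Nr4a1 (Nur77; ENSMUSG00000023034, chromosome 15, 101253902 to 101274795) was at 5.02, 3.35, 5.99 and 5.15 CPM in Vehicle 1 to 4. Its TSA libraries held 8.23, 7.57, 6.42 and 8.25 CPM. Here too the groups did not overlap, although TSA 3 lay only slightly above Vehicle 3. The rise was 0.64 ± 0.19 on the log2 scale (95% interval 0.22 to 1.05, edgeR adjusted p = 0.0204). That call ended without TSA 1 (edgeR adjusted p = 0.0505), without TSA 4 (0.0612), with Xist as a covariate (log2 fold change 0.76, adjusted p = 0.12) and in the 5 libraries with Xist RNA (0.76, adjusted p = 0.211). The remaining family member, Nr4a2, which also marks deep cortical neurons and was named after its value was seen, averaged 36.3 ± 9.06 CPM under Vehicle and 46.2 ± 3.41 CPM under TSA and was not called (log2 fold change 0.35 ± 0.15, edgeR adjusted p = 0.0818).

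FOS and JUN proteins pair as the AP-1 transcription factor. Jun, which encodes the JUN subunit that can also pair with itself, is ENSMUSG00000052684 (chromosome 4, 95049036 to 95052222). The Vehicle libraries held 30, 44.5, 44.4 and 27.8 CPM of Jun, numbered 1 to 4, and the TSA libraries 53, 45.6, 43.1 and 61.9 CPM. The groups overlapped, TSA 3 lying below Vehicle 2 and Vehicle 3. Jun rose by 0.47 ± 0.16 on the log2 scale (95% interval 0.12 to 0.82, edgeR adjusted p = 0.041).

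Vehicle 1 and Vehicle 4, its lowest libraries, were also the richest in mitochondrially encoded RNA, at 2.86 and 3.36% of counts against 1.48 to 2% in the other 6, and without that pair the log2 fold change was 0.19 (edgeR adjusted p = 0.321). The call for Jun also ended when Vehicle 1, Vehicle 4, TSA 1, TSA 2 or TSA 4 was left out (edgeR adjusted p = 0.0973, 0.127, 0.092, 0.0513 and 0.135), with Xist as a covariate (0.70, adjusted p = 0.0721) and in the 5 libraries with Xist RNA (0.75, adjusted p = 0.111).

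Fos, the prototype of the class and the partner of JUN proteins (ENSMUSG00000021250, chromosome 12, 85473890 to 85477274), was close to the detection limit. Only 3, 9, 19 and 13 Fos reads were counted in Vehicle 1 to 4 (0.206, 0.58, 1.31 and 1.03 CPM). In TSA 1 to 4 the reads numbered 2, 10, 17 and 12 (0.305, 0.565, 0.839 and 0.75 CPM). All 4 TSA values lay within the Vehicle range. The log2 fold change was −0.23 ± 0.48 (edgeR adjusted p = 0.76), and its 95% interval of −1.26 to 0.80 includes changes larger than that of Jun in either direction.

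Fosb, a FOS paralogue whose splice form ΔFosB accumulates on repeated stimulation (ENSMUSG00000003545, chromosome 7, 19302696 to 19310118), had 0, 5, 5 and 3 counts in Vehicle 1 to 4. In TSA 1 to 4 it had 1, 2, 0 and 2 counts. In all that is 13 against 5 counts, and the libraries at 0 allow levels up to 0.206 CPM in Vehicle 1 and 0.148 CPM in TSA 3 (3 counts, covering counting error only). A difference in Fosb was not detectable at this depth. Junb, which encodes a JUN family member that often restrains JUN activity (ENSMUSG00000052837, chromosome 8, 84976909 to 84978748), had 7, 12, 15 and 6 counts in Vehicle and 5, 13, 11 and 12 in TSA. These overlapped fully, at 0.475 to 1.03 and 0.543 to 0.762 CPM, with a log2 fold change of −0.02 ± 0.38 (95% interval −0.83 to 0.78, edgeR adjusted p = 0.97).

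Egr1, a zinc-finger transcription factor induced through SRF and ERK signals (ENSMUSG00000038418, chromosome 18, 34861207 to 34864956), showed a large fold change that its spread left uncalled. Its level in Vehicle 1 to 4 was 0.756, 1.35, 2.14 and 2.69 CPM, and in TSA 1 to 4 it was 1.52, 3.11, 4.69 and 2.06 CPM. TSA 2 and TSA 3 were above every Vehicle library, while TSA 1 and TSA 4 lay within the Vehicle range. The log2 fold change was 0.79 ± 0.39 (95% interval −0.04 to 1.62, edgeR adjusted p = 0.136). It passed when no filter on low counts was applied (0.80, edgeR adjusted p = 0.0356), and was 0.26 ± 0.59 in the 5 libraries with Xist RNA (adjusted p = 0.867).

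Npas4, a bHLH-PAS factor that responds to calcium entry in neurons (ENSMUSG00000045903, chromosome 19, 4984353 to 5003439), was read at 2.68, 1.22, 3.31 and 3.17 CPM in Vehicle 1 to 4. In TSA 1 to 4 it was at 1.22, 1.3, 3.75 and 3.13 CPM. Low and high libraries occurred in both groups, and the log2 fold change was −0.07 ± 0.38 (95% interval −0.89 to 0.75, edgeR adjusted p = 0.912). Ier2, a small nuclear regulator and the shortest of the genes (ENSMUSG00000053560, chromosome 8, 84661331 to 84662852), lay at 4.74, 5.29, 7.23 and 5.54 CPM in the 4 Vehicle libraries and at 7.16, 5.87, 5.97 and 8.69 CPM in the 4 TSA libraries.

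The Ier2 groups overlapped through Vehicle 3, and the log2 fold change of 0.27 ± 0.19 did not pass (95% interval −0.14 to 0.69, edgeR adjusted p = 0.303). Short genes were lower in TSA throughout these data, with a median log2 fold change of −0.30 over genes spanning 1 to 2 kb, the band of Ier2 and Junb, −0.18 for 2 to 5 kb (Jun, Fos, Arc and Egr1) and −0.02 for 10 to 50 kb (Nr4a1, Nr4a3 and Npas4). When the trend of each library over gene length in the genome was taken out, Ier2 passed at 0.53 ± 0.18 (limma adjusted p = 0.0388), and Jun, Nr4a1 and Nr4a3 stayed past the threshold at 0.68, 0.69 and 1.03 (adjusted p = 0.0132, 0.0105 and 0.000774).

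Arc is the effector of the list, a synaptic protein that forms capsid-like particles and regulates glutamate receptor traffic (ENSMUSG00000022602, chromosome 15, 74669081 to 74672570). Vehicle 1 to 4 held 2.2, 3.67, 5.65 and 3.25 CPM, and TSA 1 to 4 held 2.59, 2.54, 4.2 and 3.69 CPM. The TSA values all fell within the Vehicle range, and the log2 fold change was −0.16 ± 0.28 (95% interval −0.76 to 0.45, edgeR adjusted p = 0.717). CPM values are not closely comparable between genes here, because no transcript lengths were used, and bands of CPM used below sort genes only roughly.

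**Figure D2:**
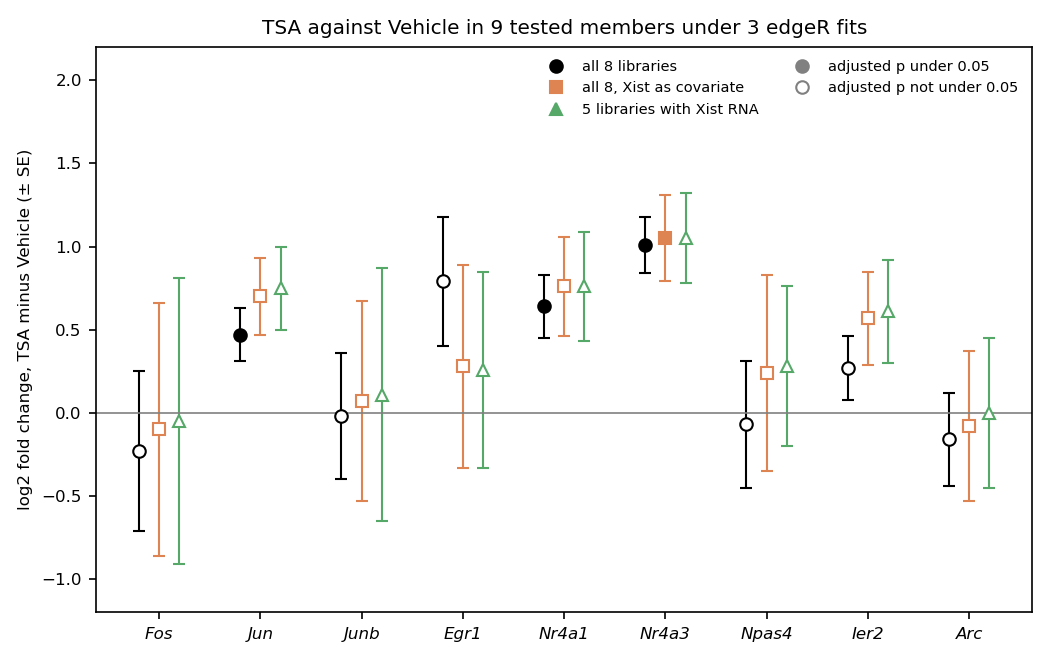
Log2 fold change of the 9 tested genes, TSA minus Vehicle, with its standard error, in 3 edgeR fits: all 8 libraries (circles), all 8 with Xist as a covariate (squares) and the 5 libraries with Xist RNA (triangles); filled symbols have an adjusted p under 0.05. Nr4a3 lies between 1.01 and 1.05 in the 3 fits, whereas Egr1 lies at 0.79 with all 8 libraries and at 0.28 and 0.26 in the other fits.

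Among themselves the genes did not move as one block. After each group's mean was subtracted, the log2 CPM of Jun and Junb had a Pearson r of 0.87 over the 8 libraries, Fos and Egr1 0.86, and Fos and Arc 0.85. Nr4a3 had an r of −0.79 with Egr1, −0.70 with Fos, −0.70 with Npas4, −0.44 with Arc, −0.39 with Nr4a1 and −0.21 with Ier2, but of 0.43 with Jun and 0.26 with Junb. Vehicle 3 was the library with the highest mean standardised level within its group (1.01) and Vehicle 1 the lowest (−0.71). These are descriptions over 8 libraries that share depth and tissue make-up, and several of the genes rest on fewer than 20 counts a library.

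Over all 8 libraries, the genes whose log2 CPM was most like the mean standardised profile of the 9 were Bmyc (r = 0.972), Insyn1 (0.966), Fam207a (0.963), Gnl1 (0.943) and Zfp689 (0.943), among 11338 genes compared. With group means subtracted they were Bmyc (0.974), Gnl1 (0.97), Fam207a (0.968), Irf2bpl (0.959) and Insyn1 (0.959). These are the highest of 11338 correlations over only 8 libraries, and whether so large a search reaches such values by chance was not tested. Low-count genes such as Fos and Junb weigh as much in the mean profile as Jun and Nr4a3.

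In a list of 14 tested transcription factors and coactivators upstream of the class, 8 rose (57.1%) and 0 fell, beside 15.4% risen and 17.6% fallen among all tested genes. The list's median log2 fold change was 0.34 (−0.01 over all genes). Among all tested genes spanning over 50 kb, 28.8% rose and 10.1% fell (median 0.13). Of the 8 that rose, Crtc3, Crtc1, Mrtfa, Mrtfb and Mef2c lie in that band. Mef2d, Srf and Elk4 lie in the band of 10 to 50 kb, where 13.2% rose. The 15.4% is thus not matched to this list for gene length. Crtc3 and Crtc1 encode CREB coactivators that enter the nucleus on dephosphorylation. For Crtc3, Vehicle 1 to 4 gave 30.2, 28.1, 25.4 and 26.3 CPM, while TSA 1 to 4 gave 57.5, 47.9, 39.2 and 58.1 CPM. For Crtc1 the Vehicle values were 103, 80.6, 96.1 and 91.3 CPM, and the TSA values 157, 143, 115 and 152 CPM. Neither gene's groups overlapped, and the log2 fold changes were 0.87 ± 0.13 and 0.61 ± 0.11 (edgeR adjusted p = 0.000191 and 0.000794). Both passed in all 20 alternatives, also in the 5 libraries with Xist RNA (edgeR adjusted p = 0.00902 and 0.0487).

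The activity-dependent factor Mef2d rose by 0.45 ± 0.09 (edgeR adjusted p = 0.00156). The other 5, named after their values were seen, were Srf (0.35), its coactivators Mrtfa (0.43) and Mrtfb (0.42), the ternary complex factor Elk4 (0.33) and Mef2c (0.48). Elk4 lost its call in 6 of the 8 fits that left out 1 library (all but Vehicle 1 and Vehicle 2), and Mef2c without TSA 2. None of these 6 factors, Mef2d included, was called in the 5 libraries with Xist RNA (edgeR adjusted p from 0.0646 for Mrtfa to 0.636 for Elk4). In the ERK, RSK, MSK and calmodulin kinase list 6 of 22 rose and 2 fell (median 0.16), and the 36.4% called in either direction is close to the 33.0% of all tested genes. In the 5 libraries with Xist RNA 0 of the 22 were called. The calmodulin kinase genes Camkk2, Camk4 and Camk2b led it by p, with rises of 0.34 ± 0.09, 0.32 ± 0.09 and 0.42 ± 0.12 (edgeR adjusted p = 0.00854, 0.0126 and 0.0141). All 3 span over 50 kb, the band in which 28.8% of tested genes rose. The call of Camk2b ended without TSA 1 (edgeR adjusted p = 0.0679) or TSA 2 (0.0572), and none of the 3 was called in the 5 libraries with Xist RNA (0.34 to 0.475).

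Of 21 feedback inhibitors, genes that shut the response down, 5 rose (23.8%) and 1 fell (4.76%), with a median log2 fold change of 0.10. The 28.6% called in either direction is near the 33.0% of all tested genes, and in the 5 libraries with Xist RNA 1 was called, Dusp14. Dusp14 encodes a dual-specificity phosphatase that acts on MAP kinases. It was at 9.35, 10.5, 6.82 and 8.07 CPM in Vehicle 1 to 4, and TSA 1 to 4 all lay higher, at 21, 19.7, 20.1 and 23.3 CPM. Its rise of 1.27 ± 0.14 (edgeR adjusted p = 4.87e-05) was larger than that of any of the 9 early genes tested, and it was called in all 20 alternatives (adjusted p = 0.0135 in the 5 libraries with Xist RNA). Sik1, a CREB target whose kinase phosphorylates the CRTC coactivators, was likewise separated, at 47.3, 43.4, 45.5 and 41.9 CPM against 71, 66.6, 60 and 71.3 CPM.

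Sik1 rose by 0.59 ± 0.09 and Zfp36l1, which promotes decay of early mRNAs, by 0.62 ± 0.14 (edgeR adjusted p = 0.000253 and 0.00318). In the 5 libraries with Xist RNA both missed the threshold (edgeR adjusted p = 0.0503 and 0.0635). Dusp6 (0.40) and Trib1 (0.51) also rose and Rgs2 (−0.57), an inhibitor of G-protein signalling, fell; these were named after their values were seen. The calls of Trib1 and Rgs2 ended in several of the fits that left out 1 library (without TSA 1, edgeR adjusted p = 0.0642 and 0.0536; without Vehicle 3, 0.0541 for Trib1; without Vehicle 4, TSA 2 and TSA 4, 0.0634, 0.0517 and 0.0551 for Rgs2).

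In the list of further AP-1 and bZIP genes 2 of 8 rose (25%, against 15.4% of all tested genes) and 0 fell: Fosl2, a FOS paralogue, by 0.73 ± 0.17 (28.3 ± 4.88 to 47.3 ± 11.2 CPM, edgeR adjusted p = 0.00482) and Mafk, a small MAF factor, by 0.37 ± 0.12 (adjusted p = 0.0293). Leaving out Vehicle 4, TSA 1, TSA 2 or TSA 4 ended the call of Mafk (0.076, 0.0953, 0.0515 and 0.0803). Jund, at 0.30 ± 0.11, was not called (edgeR adjusted p = 0.0595). Of 14 other early transcription factors and regulators 2 rose and 1 fell, 21.4% in all against 33.0% of all tested genes, and in the 5 libraries with Xist RNA 0 were called in either of these lists. Ier5l rose by 0.69 ± 0.19 and the clock gene Per1 by 0.47 ± 0.14 (edgeR adjusted p = 0.0105 and 0.0158). The antiproliferative gene Btg1 was the one that fell, at 104 ± 13 CPM under Vehicle and 66.8 ± 7.27 CPM under TSA (log2 fold change −0.63 ± 0.11, edgeR adjusted p = 0.000586). The call of Per1 ended without Vehicle 4 (0.0531) or TSA 4 (0.0569).

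Of 14 activity-regulated effectors of neurons, 2 rose and 2 fell, 28.6% in all against 33.0% of all tested genes, and 0 were called in the 5 libraries with Xist RNA. Pcsk1, a prohormone convertase gene, was lower in all 4 TSA libraries, averaging 1.68 ± 0.208 CPM against 3.32 ± 0.388 CPM (log2 fold change −0.97 ± 0.23, edgeR adjusted p = 0.00463). The neuronal pentraxin genes moved in opposite directions, Nptx1 rising by 0.48 ± 0.13 and Nptx2 falling by 0.63 ± 0.21 on the log2 scale (edgeR adjusted p = 0.01 and 0.0291). Homer1, a synaptic scaffold gene that was named after its value was seen, rose by 0.32 ± 0.11 (edgeR adjusted p = 0.0332). Leaving out 1 library ended the call of Nptx2 in 5 of 8 cases (Vehicle 3, Vehicle 4, TSA 1, TSA 2 or TSA 4) and that of Homer1 in 6 of 8 (all but Vehicle 2 and TSA 3), with adjusted p of up to 0.0936 and 0.101.

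Heat shock and stress genes, a second class that responds to handling of tissue, gave 1 rise and 1 fall among 12 tested (median −0.09), 16.7% in all against 33.0% of all tested genes. Hspe1, a mitochondrial chaperonin gene, fell by 1.15 ± 0.14 on the log2 scale (edgeR adjusted p = 8.57e-05), and Hsph1 rose by 0.40 ± 0.13 (edgeR adjusted p = 0.0325). Leaving out Vehicle 1, Vehicle 4 or any TSA library ended the call of Hsph1 (adjusted p from 0.0516 to 0.0955). Atf4, the transcription factor of the integrated stress response, stood at −0.22 ± 0.09 (edgeR adjusted p = 0.0741). The inducible genes Hspa1a, Hspa1b and Hspb1 had too few counts to be tested. Across the 7 lists the share called in either direction ran from 16.7% here to 57.1% for the upstream factors, beside 33.0% of all tested genes. Only the upstream factors and the kinases (36.4%) stood above that share. In all 7 lists together 26 genes rose and 7 fell, but in the 5 libraries with Xist RNA these counts were 3 (Dusp14, Crtc3 and Crtc1) and 0.

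**Figure D3:**
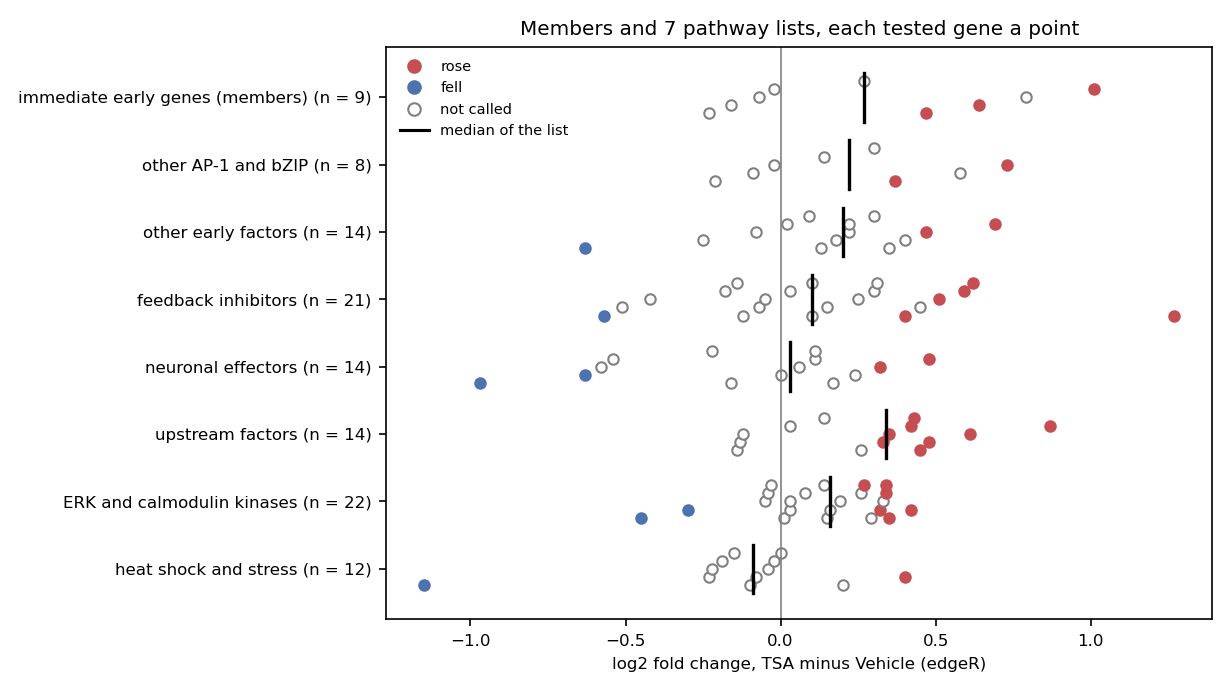
Log2 fold change, TSA minus Vehicle (x axis), of every tested gene in the immediate early list and in 7 lists around it (rows); red points rose, blue points fell, open points were not called, and the black bar is the list's median. The list of upstream factors has the highest median (0.34), with 8 of 14 called, and Dusp14 among the feedback inhibitors stands at 1.27.

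RNA of several cell type marker lists differed between the groups, and the counts below stand beside 15.4% risen and 17.6% fallen among all tested genes. Markers of the cortical excitatory lineage rose in 8 of 11 and fell in 0, with summed levels of 3210 to 4230 CPM in Vehicle and 4620 to 5350 CPM in TSA. Eomes, Tbr1 and Neurod2 led by p (log2 fold change 2.09, 0.90 and 0.82). The 3 not called, named after their values were seen, were Sox2 (−0.40), Emx2 (−0.25) and Tubb3 (0). All 10 markers of inhibitory neurons and the ganglionic eminence fell, from 1030 to 1240 CPM summed in Vehicle to 435 to 664 CPM in TSA, led by Dlx1 (−1.16), Gsx2 (−2.18) and Sp9 (−1.32). Microglial and macrophage markers fell in 7 of 12 (59.4 to 81.4 against 40.6 to 58.2 CPM), including Lyz2 (−1.70), Ctss (−0.97) and Aif1 (−1.49). The 5 not called ran from P2ry12 (−0.45) to Cx3cr1 (0.14), both named after their values were seen. In the 5 libraries with Xist RNA the excitatory list had 5 rises among its 11 genes, Eomes, Tbr1 and Neurod2 included, the inhibitory list had 3 falls (Dlx1, Gsx2 and Sp9) and the microglial list 0. The part of these markers in the changes of the early genes was not tested, and in bulk tissue fewer cells of a type and less RNA per cell cannot be told apart.

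Endothelial markers fell in 2 of 10, near the share of all tested genes (Cldn5, −0.71, and Esam, −0.49; Emcn, −0.49, was not called), with 150 to 222 CPM in Vehicle and 149 to 185 CPM in TSA. Of 8 pericyte markers Rgs5 (−0.96), Kcnj8 (−0.80) and Vtn (−0.54, named after its value was seen) fell and Cspg4 (0.51) rose, at 183 to 261 and 133 to 191 CPM. Meningeal markers fell in 2 of 6 (Dcn, −1.11, and Crabp2, −1.13; Col1a1, 0.24, was not called), at 16.1 to 23.2 and 14.4 to 20.1 CPM, and erythroid markers in 2 of 9 (Hbb-bs, −1.10, and Hbb-bt, −1.22; Alas2, −0.32, was not called; again near the share of all tested genes), at 202 to 475 and 149 to 181 CPM. Choroid plexus markers gave 0 calls among 4 (Ttr −2.28, Otx2 0.23, Clic6 −0.15), at 7.44 to 16.6 and 7.06 to 17.4 CPM. In the 5 libraries with Xist RNA these lists gave 1 call, the fall of Rgs5, and none of the listed markers was at 0 in all 8 libraries.

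H3K9ac marks the promoters of active and poised genes, and its peaks were compared by presence and by covered length. Peak height was not compared, since each list was scaled on its own. The lists held 41987, 41331, 43645 and 22668 peaks in Vehicle 1 to 4 and 46714, 53285, 32248 and 61217 in TSA 1 to 4. Vehicle 4, the shortest list, came from the most tags (24075842) and TSA 4 was the longest, so what follows moves with how much was called in a list. For 7 genes a peak was sought within 1000 bases of the start, and for Egr1, Arc and Ier2, whose strand the tables used here do not give, within the whole gene and 1000 bases on each side.

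A peak was present at 6 of the 10 genes in all 8 libraries. Jun, Nr4a3 and Npas4 had it in the window around the start, and Egr1, Arc and Ier2 in the wider whole-gene window. The pooled count therefore has no single share over all genes to stand beside it. Among all gene starts 32.3% had a peak in every library, and among genes under 5 kb with their flanks 23.3%. The share at gene starts moved with RNA level, in bands of CPM that are not corrected for transcript length. It was 7.7% for genes outside the RNA test and 19.8% for tested genes under 1 CPM. It was 37.4% for 1 to 10 CPM, 76.9% for 10 to 100 CPM and 89.1% for 100 CPM or more. The 32.3% thus includes many genes without a tested RNA level. Fos and Nr4a1 had a peak in 3 Vehicle and 4 TSA libraries, Junb in 3 and 3, and Fosb in 2 and 3. The two-sided Fisher exact test gave an unadjusted and an adjusted p of 1 for each of the 10 genes. With 4 libraries against 4, it falls under 0.05 only where all libraries of 1 group and none of the other have a peak. None of the 10 genes had such a split, so the test says little about smaller differences. Across all 27025 starts, 0.0629% passed at an unadjusted p under 0.05 and 0 (0%) after adjustment. By library, 9, 10, 10 and 6 of the 10 genes had a peak in Vehicle 1 to 4 and 10, 10, 8 and 10 in TSA 1 to 4, the low counts being in the shortest lists of each group.

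**Figure D4:**
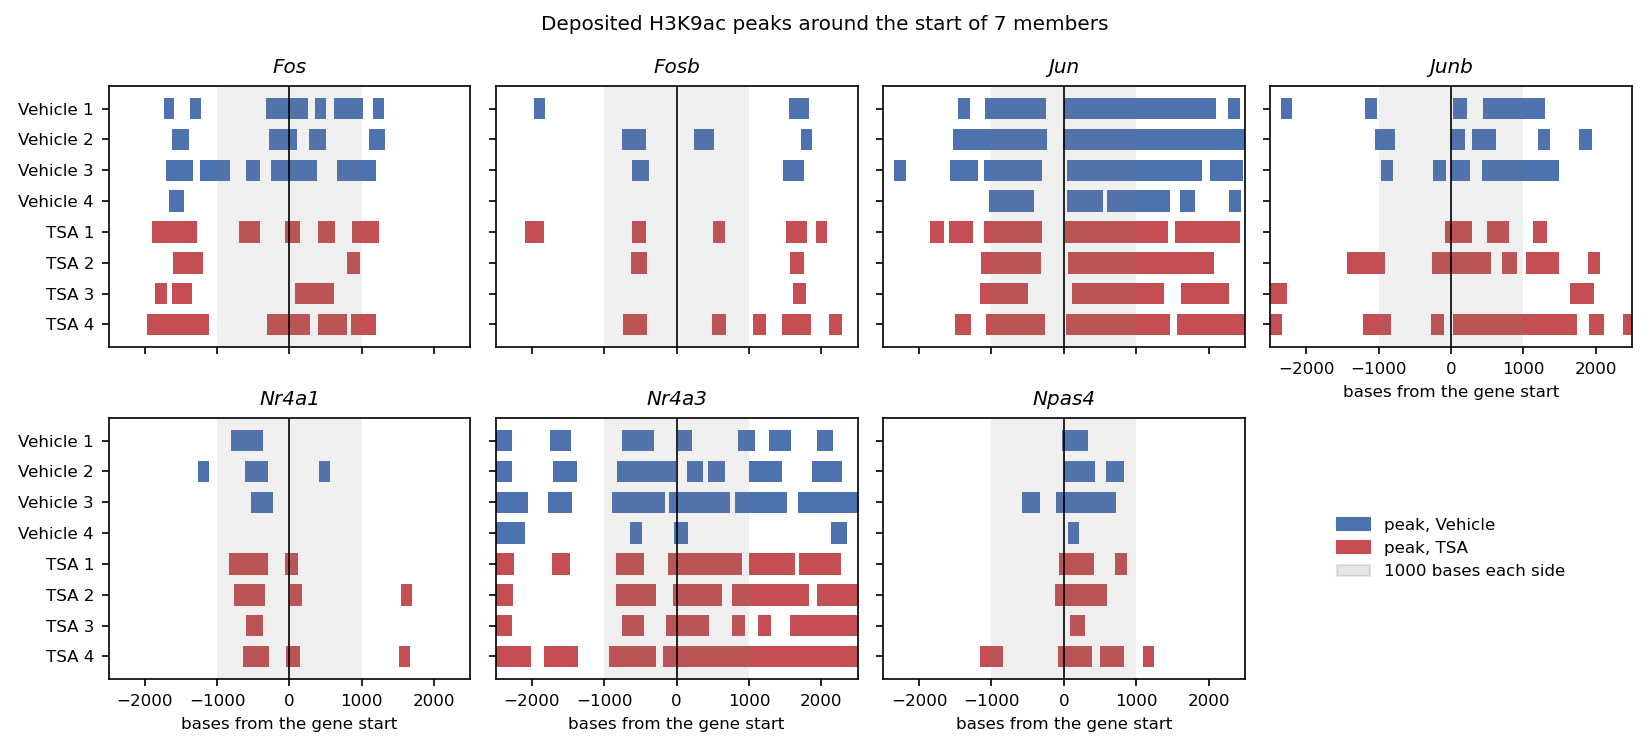
Deposited H3K9ac peaks (bars) within 2500 bases of the start of 7 genes, 1 row per library, with the x axis in bases from the start along the direction of transcription and the window of 1000 bases on each side shaded. Jun carries a peak on both sides of the start in all 8 libraries, Nr4a3 is covered on both sides in every library, and Fos, Fosb, Junb and Nr4a1 have no peak in the shaded window in Vehicle 4.

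Covered length, the number of bases under peaks within 2000 bases of the start, was largest at Jun. It was 2993, 3313, 3054 and 2188 bases in Vehicle 1 to 4 and 3230, 2761, 2324 and 2900 bases in TSA 1 to 4. The groups overlapped, with means of 2887 ± 486 and 2804 ± 376 bases (SD, n = 4 each, two-sided exact permutation p = 0.7429). At the Jun start the best peak stood among the top 2.8 to 14.7% of its list by the authors' fold enrichment.

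At Nr4a3, whose RNA rose most, peaks covered 1542, 2197, 2937 and 375 bases in Vehicle 1 to 4 and 2586, 2357, 1681 and 3318 bases in TSA 1 to 4. Vehicle 3 lay above 3 of the TSA libraries, and the means of 1763 ± 1087 and 2486 ± 675 bases did not differ beyond the spread (exact permutation p = 0.3429). Leaving out Vehicle 4 and TSA 4, the shortest and the longest list, turned the difference to −17.3 bases, a setting chosen after the list lengths were seen. At Nr4a1 the covered length was 443, 616, 310 and 0 bases in Vehicle and 711, 767, 244 and 720 bases in TSA (means 342 ± 260 and 611 ± 246, exact permutation p = 0.2). Its peaks in Vehicle all ended at −227 bases from the start or further upstream, or began 409 bases after it, whereas TSA 1, TSA 2 and TSA 4 each had a further peak at the start (from −59 to 115, 9 to 171 and −43 to 152 bases); this was noticed on inspection and was not tested.

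The other genes also overlapped between groups. At Fos, peaks covered 1585, 1076, 2186 and 204 bases in Vehicle 1 to 4 and 1741, 596, 993 and 2214 bases in TSA 1 to 4 (exact permutation p = 0.8286). Fosb had 434 ± 319 and 660 ± 428 bases (exact p = 0.4286), Junb 1020 ± 716 and 1421 ± 979 (exact p = 0.5143) and Npas4 571 ± 412 and 711 ± 434 (exact p = 0.6286). Over the whole gene with flanks, Egr1 had 1037 ± 528 and 1353 ± 566 bases (exact p = 0.4571), Arc 675 ± 95.3 and 550 ± 387 (exact p = 0.4857) and Ier2 1801 ± 654 and 1921 ± 447 (exact p = 0.8286). Adjusted p was 1 for all 10.

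With 4 libraries against 4 the smallest exact permutation p is 0.0286. A gene could then pass adjustment over all windows only if most windows came near that value, and 0 of the 27025 starts (0%) passed. Unadjusted, 0.895% of starts had a p under 0.05 (0.844% with all TSA libraries above all Vehicle libraries) and 0.755% of the genes under 5 kb with flanks, against 0 of the 10 genes. A miss at this size does not show that H3K9ac was alike in the groups.

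Fos, Junb and Fosb, each below 1 CPM in both groups on average, had a peak near the start in 7, 6 and 5 of the 8 libraries. Fosb was too low for the RNA test; among the 415 tested genes averaging under 1 CPM, 68.2% had a peak in at least 1 library and 27.5% had a peak in 7 or 8 libraries, rising to 50.9% for 1 to 10 CPM, 87.6% for 10 to 100 CPM and 94.1% for 100 CPM or more. Jun and Nr4a3, in the band of 10 to 100 CPM, had a peak in all 8, as did 76.9% of the genes in that band.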

How the data were processed

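RNA was counted in 8 libraries and H3K9ac peaks were called in another 8. The RNA values are whole read counts per Ensembl gene as deposited, with no normalization by the authors; the submitters' processing notes name the build mm10 and SAMtools, while an aligner and a counting program were not given in the sources used here. Per the labels' protocols the kit was an unstranded one, and a gene's reads cannot be told apart from those of an antisense partner. Lines for unassigned reads held 0. Peaks were called per library with MACS2 2.1.0.20140616 at a q-value limit of 0.1, per the file headers. They were called on 50-base tags (11824246 to 24075842 per library) against 1 control of 18937878 tags. All 8 lists give this same control size, although 2 inputs are labelled, a Vehicle and a TSA input. How these inputs entered the control was not established here. The authors' deposited columns are pileup signal at the summit, fold enrichment (a ratio) and −log10 p and q values; these fold values only rank peaks within a list.

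Of 47729 genes, 47224 matched a symbol. Genes kept by filterByExpr (15000) were TMM-scaled and tested with edgeR 4.0.16 (R 4.3.3), quasi-likelihood, robust, no covariate; Benjamini-Hochberg adjusted p under 0.05 over all tested genes was called, and adjusted p-values are from this test unless limma 3.58.1 is named. Replicates of a group differed beyond sampling noise (chi-square per degree of freedom 3.12 to 36). On simulated data (14869 genes), 65, 67 and 66 genes were changed 1.5, 2 and 3 fold, and the test recovered 58.5, 94 and 100% of them. Every simulated gene was given the same spread, the median dispersion of the real genes. These shares therefore do not hold for genes with a wider spread, such as Fos (SE 0.48) and Egr1 (SE 0.39). The simulation also changed few genes, while 33.0% of tested genes were called in the real data, so adjustment was stricter in the simulation. Peak presence was tested by the Fisher exact test and covered length by a two-sided exact permutation test (Python 3.11.15, scipy 1.17.1). Promoters and starts are RefSeq's (GRCm38.p6). Counting floors and intervals cover counting error only.

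The genes and lists were chosen with earlier results of these data known. Named are the 10 genes, up to 3 genes with the smallest p in each list, the 5 genes most like the mean profile in each of 2 ways (mean log2 CPM above 2), and Smarcc1; others are said to be named after their values were seen. Alternatives were RLE and upper-quartile factors, DESeq2 1.42.0, limma-voom, other filters, each library left out, a replicate block, lane, Xist and span adjustments, removal of the mitochondria-rich pair, and other peak windows, overlaps and limits. Chosen after seeing the data were the 5 libraries with Xist RNA, whole-gene windows for every gene, and leaving out the shortest and longest peak lists.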

Additional observations from a re-analysis of the deposited data

Results flagged for a closer look

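In 2 of 40 groups of 4 libraries checked, 1 library stood apart by Dixon's ratio of its gap to the whole range, a test that picks out about 1 in 20 groups by chance. Junb RNA in TSA 3 was 0.543 CPM, against 0.734 to 0.762 CPM in the other TSA libraries (ratio 0.872). The H3K9ac-covered length at Nr4a1 in TSA 3 was 244 bases, against 711 to 767 bases in the other TSA libraries (ratio 0.893). TSA 3 also had the shortest TSA peak list (32248 peaks), and the RNA and peak libraries are separate samples that share only a number.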

How the results depend on the processing

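Across all settings tried, Nr4a3 kept its direction (log2 fold change 0.87 to 1.16 when each library was left out), and it lost its call only in the 5 libraries with Xist RNA. The number of the 10 genes that rose was 3; it was 1 to 3 with each library left out, 1 with Xist as a covariate and 0 in the 5 libraries with Xist RNA. In the pathway lists 26 rose and 7 fell; Xist as a covariate gave 9 and 2, the 5 libraries gave 3 and 0, and leaving out each library gave 3 to 7 falls. Over all genes, 2314 rose and 2640 fell, against 727 and 773 with Xist as a covariate and 258 and 195 in the 5 libraries, where fewer libraries were fitted.

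Genes near 0 changed sign. Junb was 0.00 with DESeq2, 0.03 with limma-voom, 0.03 with lane, 0.07 with Xist, 0.30 with the span trend removed, 0.11 in the 5 libraries and −0.16 to 0.23 with each library left out. Fos was 0.12 with lane, 0.03 with span and −0.55 to 0.15 with each library left out. Npas4 was 0.06 with lane, 0.24 with Xist, 0.13 without the mitochondria-rich pair, 0.28 in the 5 libraries and −0.40 to 0.16 with each library left out. Arc was 0.02 with lane, 0.06 with span and −0.34 to 0.12 with each library left out. None of these passed the test.

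Differences in covered length, TSA minus Vehicle, turned negative without the shortest and longest lists: −505.7 bases for Fos, −71.3 for Fosb, −257 for Junb, −191.7 for Egr1, −17.3 for Nr4a3, −183.7 for Npas4 and −385 for Ier2. Ier2 was −38.8 within 5000 bases. With each library left out, ranges were −316.2 to 76.7 for Jun, −229.7 to 431 for Fos, −191.2 to 308.5 for Ier2 and −44.8 to 315 for Npas4. The cause of these changes was not tested.

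Same-numbered libraries had correlations of their deviations of 0.097, 0.085, 0.07 and 0.111, not all above 0.1, so the numbers were not taken as pairs; TSA 1, TSA 2 and TSA 4 correlated best with their own number and TSA 3 with Vehicle 2 (0.155). With a replicate block 2 of the 10 genes rose and 0 fell (Jun 0.48, edgeR adjusted p = 0.0824), pathway genes numbered 27 and 8, and the paired exact sign-flip test of covered length, whose smallest p is 0.125, called 0. Depth limits Fos, Fosb and Junb, at 19 counts or fewer in every library.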
